A study of Mus musculus with 2 samples.

Results

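Interferons reach a bone marrow cell through receptors and Janus kinases, and the transcripts of 9 genes of that chain were measured here in single marrow cells of the mouse. They were taken by gene symbol, and all 9 were found among the 31053 genes of the tables: the receptor chains Ifngr1, Ifngr2, Ifnar1 and Ifnar2, the kinases Jak1, Jak2 and Tyk2, the feedback inhibitor Socs1 and the early target Irf1. There were 2 libraries, 1 per group. The Listeria library came from bone marrow HSCs of wild-type C57BL/6J mice 6 weeks after a challenge with the bacterium Listeria monocytogenes, and the naive library from bone marrow HSCs of untreated wild-type C57BL/6J mice. The labels give an age of 6 to 8 weeks for both, without saying whether the age of the challenged mice is that at challenge or at harvest, and do not say how many mice were pooled. Its file names, however, carry the abbreviation of a knockout, whereas the labels give wild type and were followed, so that a difference in genotype and the challenge cannot be told apart. With 1 library per group no test between groups was possible, and every interval below covers counting error only.

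Interferon gamma binds Ifngr1, which recruits Ifngr2, and the kinases Jak1 and Jak2 carried by these chains then phosphorylate Stat proteins, which enter the nucleus. Type I interferons bind Ifnar1 and Ifnar2, which carry Tyk2 and Jak1, and activate Stat proteins in the same way. The DNA elements GAS and ISRE take up these signals at target genes, and Socs1 protein inhibits the kinases in turn. In bone marrow, both kinds of interferon are known to act on hematopoietic stem cells (HSCs).

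The libraries held 43895966 unique molecular identifiers (UMIs, each standing for 1 captured transcript) in the Listeria and 64619150 in the naive library. Barcodes with at least 2500 UMIs, at least 500 genes and at most 10% mitochondrial UMIs were kept, which left 4839 and 6375 cells with a median of 7239 UMIs in the Listeria and 6972 in the naive library. The kept cells of both libraries shared 14 barcodes, 0.289% of the Listeria and 0.220% of the naive cells. A random draw from the barcode list would give 4.54, and the cause of the excess was not tested. Cells were sorted by marker genes into gates, which are counting rules and not sorted populations. The label of HSCs held for part of the cells: the HSC gate (at least 3 of 10 HSC markers, no Flt3 or Cd48 UMI, no lineage) took 1371 Listeria cells (28.3%) and 1354 naive cells (21.2%). The B-lineage gate took 387 Listeria cells (8.00%) and 1373 naive cells (21.5%), the T/NK gate 102 and 206, and 1585 Listeria and 1663 naive cells were ungated. The T/NK gate is named from 12 markers of T and natural killer cells, all of them higher there than in the HSC gate in both libraries. Its cells were picked by these markers and the HSC gate leaves out lineage cells, so this largely follows from the rules. It does not test the name.

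Of the receptor chains, 3 sit in one block of mouse chromosome 16 (build mm10). Ifnar2 lies at chr16:91372783-91405589, Ifnar1 at chr16:91485238-91507441 and Ifngr2 at chr16:91547072-91565623, all on the plus strand, with the interleukin 10 receptor chain Il10rb between the first 2 in a block of 193 kb. Ifngr1 lies apart, at chr10:19591949-19610229. Jak1 is at chr4:101152367-101265282 on the minus strand, Jak2 at chr19:29251828-29313080 on the plus strand and Tyk2 at chr9:21104068-21131243 on the minus strand. Socs1 is at chr16:10782240-10785536 on the minus strand and Irf1 at chr11:53770014-53778374 on the plus strand.

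The promoters of Irf1 and Socs1 are printed because these genes are the early target and the feedback inhibitor among the members. Signalling itself was not measured. Over all kept cells both genes were lower in the Listeria library, though not in every gate. They are RefSeq windows of GRCm38.p6, from 250 bases before to 50 bases after the start site, written 5′ to 3′ on the gene's strand, with matches to the GAS letters TTCNNNGAA or the ISRE letters (GAAA, any 2 bases, then GAAA), searched on both strands, in capitals.
Irf1, chr11:53769764-53770063, plus strand: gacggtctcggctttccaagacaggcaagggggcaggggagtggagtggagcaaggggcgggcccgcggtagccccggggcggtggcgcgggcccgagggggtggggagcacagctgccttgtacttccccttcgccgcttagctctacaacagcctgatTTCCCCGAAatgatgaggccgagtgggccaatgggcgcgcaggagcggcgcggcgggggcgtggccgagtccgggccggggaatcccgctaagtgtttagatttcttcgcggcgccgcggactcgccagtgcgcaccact
Socs1, chr16:10785487-10785786, minus strand: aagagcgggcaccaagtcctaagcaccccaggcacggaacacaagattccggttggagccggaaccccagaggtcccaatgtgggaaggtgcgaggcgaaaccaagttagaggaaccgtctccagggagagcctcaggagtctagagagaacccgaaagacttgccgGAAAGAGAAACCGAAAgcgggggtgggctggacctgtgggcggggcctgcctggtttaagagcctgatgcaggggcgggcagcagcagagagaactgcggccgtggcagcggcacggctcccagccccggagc
A second RefSeq window of Irf1, at chr11:53770223-53770522, held no match of either motif and is not shown. The capitals in Irf1 are 1 GAS match that begins 90 bases before the start site, and those in Socs1 are 2 overlapping ISRE matches that begin 83 and 77 bases before it. Windows of the same length hold a GAS match in 8.30% and an ISRE match in 3.44% of 32851 mouse promoters. Among the other members, a GAS match was found 214 bases before the start site of Ifnar2 and 5 bases before that of Ifnar1, and no match of either motif in the windows of Ifngr1, Ifngr2, Jak1, Jak2 and Tyk2. A match describes letters and not binding.

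Levels are given as UMIs per 1000000 UMIs of the gate (CPM, scaled counts) with an exact Poisson 95% interval, and are compared between gates for 1 gene at a time, since 3′ counts do not rank different genes. A smaller number of cells in a state and less RNA per cell cannot be told apart in such sums.

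The chains of the interferon gamma receptor differed in where they were high. Ifngr1, the ligand-binding chain, was highest in the T/NK gate, at 327 CPM (283 to 376) in the Listeria and 362 CPM (331 to 396) in the naive library. The HSC gate had 100.1 CPM of Ifngr1 (94.1 to 106) in the Listeria and 105 CPM (98.4 to 111) in the naive library, so the T/NK gate was 3.27-fold and 3.46-fold above it. Next to the T/NK gate came the erythroid, monocyte/DC and myeloid progenitor gates, whose intervals overlapped those of their neighbours among the 3 in both libraries. The B-lineage gate was lower than the HSC gate, at 62.0 CPM in the Listeria and 57.2 CPM in the naive library, and the megakaryocyte gate, at 42.4 and 54.0 CPM, was lower than the HSC gate too. The plasma gate was lowest, with 9 UMIs of Ifngr1 in 25 Listeria cells and 10 UMIs in 64 naive cells.

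Ifngr2, the chain that brings Jak2 to the complex, had another order. It was highest in the neutrophil gate, at 103 CPM (77.2 to 134) in the Listeria and 70.9 CPM (52.4 to 93.7) in the naive library. The B-lineage gate followed, at 40.5 CPM (34.5 to 47.4) in the Listeria and 45.8 CPM (42.2 to 49.5) in the naive library, overlapping the monocyte/DC gate in both. The HSC gate had only 98 UMIs of Ifngr2 in the Listeria (9.58 CPM, 7.78 to 11.7) and 104 in the naive library (10.7 CPM, 8.72 to 12.9). The B-lineage gate was thus 4.23-fold above the HSC gate (3.27 to 5.50) in the Listeria and 4.29-fold (3.48 to 5.33) in the naive library. Highest in Ifngr1, the T/NK gate had 4 UMIs of Ifngr2 in the Listeria and 23 in the naive library, and its levels of 6.58 and 16.9 CPM overlapped those of the HSC gate. Over the 17 profiles of a gate in a library with at least 50 cells, the 2 chains had a Pearson r of 0.01 on the scale of log2(CPM + 10), a description across profiles that share libraries.

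**Figure D1:**
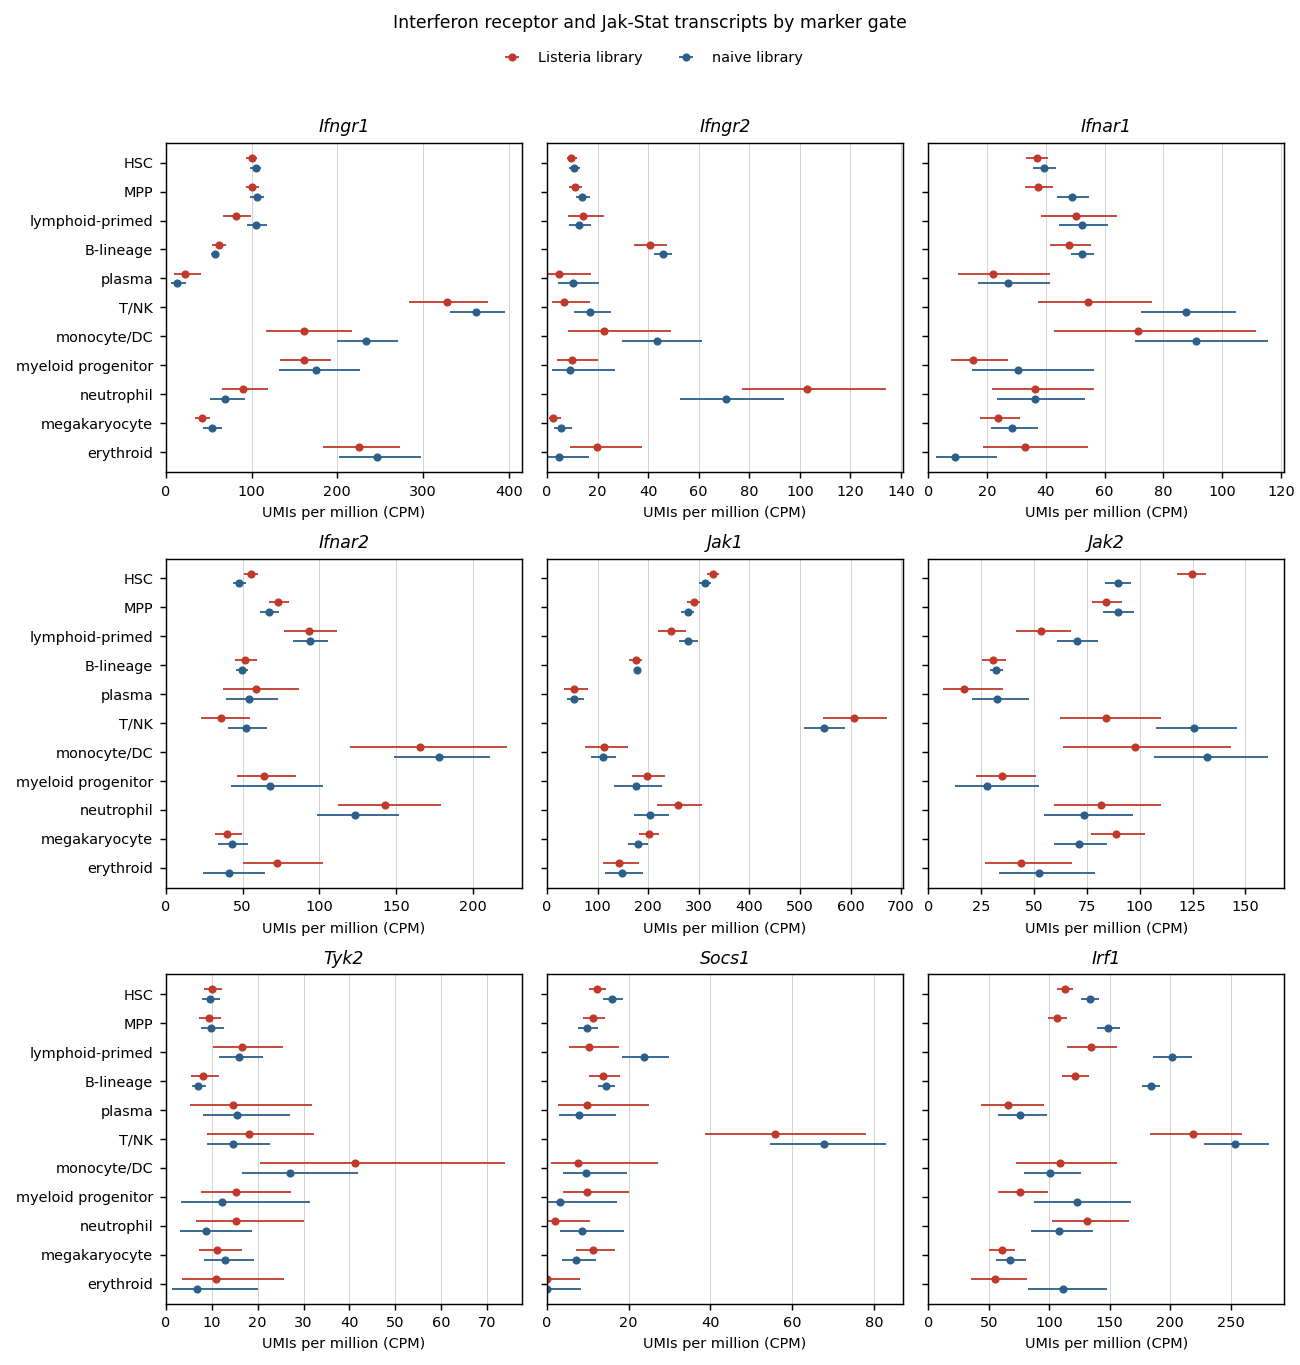
Levels of the 9 genes in CPM of each gate, for the Listeria library (red, upper point of each pair) and the naive library (blue, lower point), with exact Poisson 95% intervals and 1 library per group. Ifngr1, Jak1, Socs1 and Irf1 are highest in the T/NK gate in both libraries, Ifngr2 is highest in the neutrophil gate, and the intervals of Jak2 in the HSC gate do not overlap between the Listeria library, at 124 CPM, and the naive library, at 89.6 CPM.

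The type I receptor chains varied less between gates. Ifnar1 was highest in the monocyte/DC gate, at 71.3 CPM (43.0 to 111) in the Listeria and 91.0 CPM (70.5 to 116) in the naive library, overlapping the T/NK gate at 54.3 and 87.6 CPM. The HSC gate had 36.9 CPM (33.2 to 40.8) in the Listeria and 39.4 CPM (35.6 to 43.6) in the naive library. The B-lineage gate was 1.30-fold above the HSC gate in Ifnar1 (1.09 to 1.55) in the Listeria and 1.33-fold (1.17 to 1.51) in the naive library. Ifnar2 was highest in the monocyte/DC gate, at 165 CPM in the Listeria and 178 CPM in the naive library, and in the neutrophil gate, at 143 and 123 CPM, with overlapping intervals. It was also above the HSC gate in early progenitors: the lymphoid-primed gate (Flt3 with Dntt, Il7r or Ly6d) had 93.1 CPM in the Listeria and 93.8 CPM in the naive library, and the MPP gate (Cd34 with Flt3 or Cd48, multipotent progenitors) 73.3 and 67.2 CPM. The HSC gate itself had 55.3 CPM of Ifnar2 (50.8 to 60.0) in the Listeria and 47.8 CPM (43.6 to 52.4) in the naive library.

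To compare how many cells carried a UMI of each chain, every cell was thinned to 2500 UMIs, which left out no kept cell. Ifngr1 was found in 56.9% of T/NK-gated cells (exact binomial 95% interval 46.7 to 66.6) of the Listeria and 55.3% (48.3 to 62.3) of the naive library. In HSC-gated cells it was found in 20.6% (18.5 to 22.9) of the Listeria and 21.6% (19.5 to 23.9) of the naive library. Ifngr2 was found in 2.55% of HSC-gated Listeria cells and 3.18% of HSC-gated naive cells, against 11.1% and 12.1% of B-lineage cells. Without thinning, Ifngr1 was found in 49.9% of HSC-gated Listeria cells and 48.8% of HSC-gated naive cells, so these shares follow depth and do not give the share of cells that express a chain.

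A UMI of both interferon gamma receptor chains was seen after thinning in 11 of 1371 HSC-gated Listeria cells (0.802%, 0.401 to 1.43) and 8 of 1354 HSC-gated naive cells (0.591%, 0.255 to 1.16). In the B-lineage gate it was seen in 2.07% (0.897 to 4.03) of Listeria and 1.53% (0.949 to 2.33) of naive cells. Unthinned, the shares were 4.16% and 4.36% in the HSC gate and 14.5% and 13.8% in the B-lineage gate. The product of the single unthinned shares was 3.31% and 3.68% in the HSC gate and 13.9% and 12.8% in the B-lineage gate. Separate detection of each chain would give this product only in cells of equal depth, and these cells differed in depth. Whether the chains were detected together more often was therefore not tested. Both type I chains were seen in 1.39% (0.836 to 2.16) of thinned HSC-gated Listeria cells and 1.18% (0.677 to 1.91) of naive ones, or 8.17% and 6.94% unthinned. The T/NK gate, which led in Ifngr1, had both interferon gamma chains unthinned in 3 of 102 Listeria cells and 9 of 206 naive cells. In the megakaryocyte gate no thinned cell had both, in 177 Listeria cells, which allows up to 1.69% (3 cells of 177), and in 147 naive cells, which allows up to 2.04%. These limits take 3 cells as the most that a count of 0 allows, and are tighter than the exact binomial limits used for the other shares. They are for cells with a UMI at this depth, not for cells that express both.

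**Figure D2:**
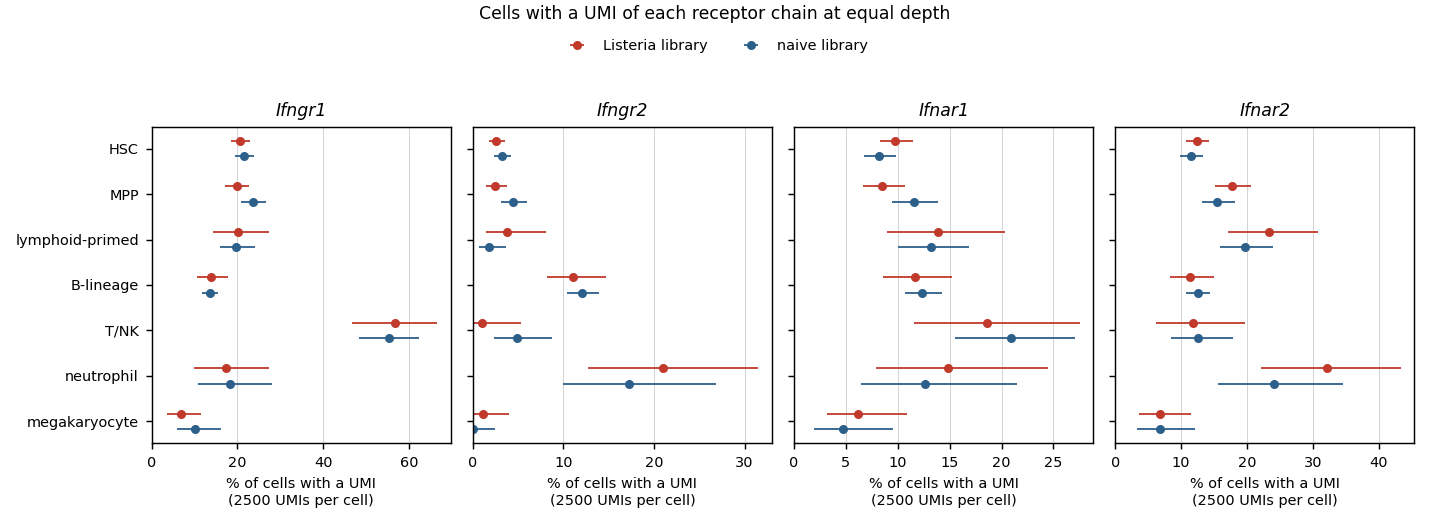
Percent of cells with at least 1 UMI of each receptor chain after every cell was thinned to 2500 UMIs, by gate, for the Listeria library (red, upper point) and the naive library (blue, lower point), with exact binomial 95% intervals. The T/NK gate stands apart for Ifngr1, at 56.9% of Listeria and 55.3% of naive cells, while the B-lineage and neutrophil gates stand above the others for Ifngr2.

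Barcodes with 1 to 50 UMIs, which hold mostly RNA free in the droplets, also carried the members. Ifngr1 was at 70.0 CPM in these barcodes of the Listeria and 65.6 CPM of the naive library, and Ifngr2 at 9.17 and 16.0 CPM. The HSC gate's Ifngr2, at 9.58 CPM in the Listeria and 10.7 CPM in the naive library, was not above its level in the free RNA. Such likeness does not give the part of a cell's UMIs that is free RNA, and that part was not measured. Of the other members, Ifnar2, Tyk2, Socs1 and Irf1 in the HSC gate also had intervals that overlapped those of the free RNA in both libraries. Ifnar2 was at 49.9 CPM in the free RNA of the Listeria and 56.1 CPM in that of the naive library. Whether the UMIs of these members in HSC-gated cells were the cells' own was not tested. Jak2 in the HSC gate overlapped the free RNA in the Listeria library and was above it in the naive library. Ifngr1, Ifnar1 and Jak1 in the HSC gate, Ifngr1 in the T/NK gate and Ifngr2 in the neutrophil gate were above it in both libraries. No gate is known to lack these receptors, so no cell type could serve as a blank for them. S100a8, a marker of the neutrophil gate, was at 2672 CPM in the free RNA of the Listeria and 2529 CPM in that of the naive library. In the HSC gate it was at 24.3 and 41.7 CPM, so a level in free RNA is not the amount it adds to a gate.

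Among the kinases, Jak1, which serves both receptors, was highest in the T/NK gate, at 607 CPM (546 to 672) in the Listeria and 548 CPM (509 to 588) in the naive library. The HSC gate came second, at 328 CPM (317 to 339) in the Listeria and 312 CPM (301 to 324) in the naive library, above every remaining gate. The plasma gate was lowest in Jak1, at 53.6 and 54.3 CPM. Tyk2, the second kinase of the type I receptor, was low throughout, with 104 UMIs in the HSC gate of the Listeria and 94 of the naive library. Its highest gate was monocyte/DC, at 41.3 CPM (20.6 to 73.9) in the Listeria and 27.2 CPM (16.6 to 41.9) in the naive library, and all neighbours in its order overlapped.

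Jak2, which serves the interferon gamma receptor and also the thrombopoietin receptor, changed its order between libraries. In the Listeria library the HSC gate was highest, at 124 CPM (118 to 132), overlapping the monocyte/DC gate of 27 cells at 97.6 CPM (63.8 to 143), and the T/NK gate had 83.9 CPM (62.4 to 110). In the naive library the HSC gate had 89.6 CPM (83.8 to 95.7), and the monocyte/DC gate, at 132 CPM, and the T/NK gate, at 126 CPM (108 to 146), were above it. The log2 ratio of the T/NK over the HSC gate was -0.57 (-1.0 to -0.17) in the Listeria and 0.49 (0.24 to 0.73) in the naive library. The B-lineage gate was low in Jak2 in both, at 30.6 CPM in the Listeria and 32.0 CPM in the naive library.

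Socs1, the feedback inhibitor, was highest in the T/NK gate, at 55.9 CPM (38.7 to 78.1) in the Listeria and 67.7 CPM (54.6 to 83.0) in the naive library. This was 4.57-fold above the HSC gate (3.03 to 6.73) in the Listeria and 4.23-fold (3.23 to 5.51) in the naive library. The erythroid gate had no Socs1 UMI in either library. Irf1, a transcription factor and early target of the pathway, was also highest in the T/NK gate, at 219 CPM (183 to 259) in the Listeria and 254 CPM (228 to 282) in the naive library. The megakaryocyte gate was among the lowest in Irf1, at 60.6 and 67.5 CPM. The B-lineage gate was 1.07-fold the HSC gate in Irf1 (0.959 to 1.19) in the Listeria library and 1.38-fold (1.29 to 1.47) in the naive library, so the interval held 1 in the Listeria library and not in the naive one.

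Across gates, a gene was counted as higher or lower when its log2 ratio passed 0.32, at least 10 CPM being needed in either of the gates. Over the HSC gate, the T/NK gate was higher in 6 of 8 members tested and lower in 2 in the Listeria library, against 29.8% of all genes higher and 34.2% lower. In the naive library it was higher in 8 of 9 and lower in 0, against 34.9% and 26.5% of all genes. The megakaryocyte gate was higher in 0 and lower in 6 of 8 members in the Listeria library (33% and 25.1% of all genes) and higher in 1 and lower in 7 of 9 in the naive library (37.8% and 22%). The B-lineage gate had 2 members higher and 3 lower of 9 in the Listeria library (33.4% and 38.5% of all genes) and 3 higher and 3 lower of 8 in the naive library (37.6% and 35.1%), shares near the background. The neutrophil gate had 3 higher and 3 lower of 9 in the Listeria library (22.4% and 62.8%) and 2 higher and 3 lower of 8 in the naive library (23% and 61.8%). Lymphoid-primed cells had 4 higher and 2 lower of 9 in the Listeria library (21.2% and 26.3%) and 5 higher and 1 lower of 9 in the naive library (22% and 25.4%). The MPP gate, nearest to the HSC gate, had 1 higher and 1 lower of 9 in the Listeria library (12.6% and 11.5%) and 2 higher and 1 lower of 8 in the naive library (10.8% and 11.9%). Ifnar2 was higher than in the HSC gate in both progenitor gates of both libraries.

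Between the libraries, over all kept cells, 1 member was higher in the Listeria library and 3 were lower, against 15.1% of 8183 genes tested that were higher and 8.62% that were lower. Jak2 was at 96.2 CPM in the Listeria and 71.8 CPM in the naive library, a log2 ratio of 0.42 (0.36 to 0.49). Irf1 was at 108 CPM in the Listeria and 159 CPM in the naive library (-0.55, -0.61 to -0.50), Socs1 at 11.7 and 16.9 CPM (-0.53, -0.69 to -0.36) and Ifngr2 at 14.1 and 22.7 CPM (-0.69, -0.84 to -0.55). The other 5 were within the limit: Ifngr1 at -0.01, Tyk2 at 0.09, Jak1 at 0.13, Ifnar2 at 0.16 and Ifnar1 at -0.29. These sums carry the different mix of cells, B-lineage cells above all. With the Listeria gates weighted to the naive mix, a setting chosen after seeing the data, Ifngr2 was at -0.21 and Jak2 at 0.16, inside the limit, while Irf1 stayed past it at -0.49 and Socs1 at -0.43.

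**Figure D3:**
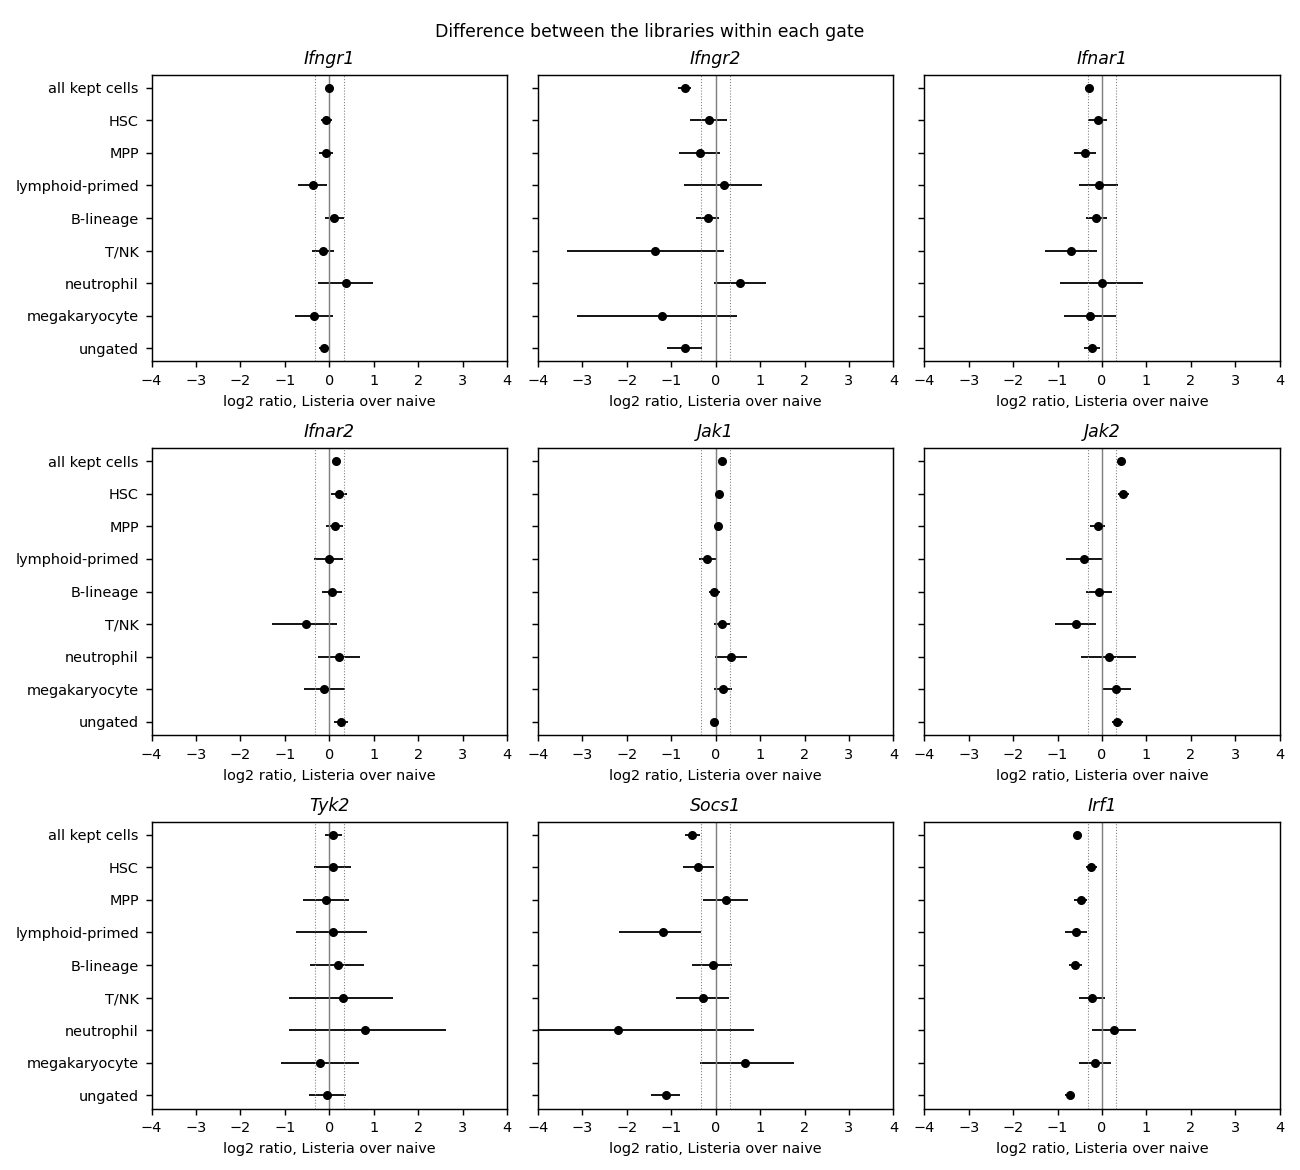
Log2 ratio of the Listeria over the naive library for the 9 genes in all kept cells, 7 marker gates and the ungated cells, with exact 95% intervals that split each gene's counts between the libraries. The solid line is no difference, the dotted lines are the limit of 0.32 in each direction, and intervals that run past the axis end at its edge. Irf1 is left of 0 in 6 of the 7 gates and Jak2 is right of 0 in the HSC gate (0.47) and left of it in the T/NK gate (-0.59).

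Within the HSC gate, 1 member was higher in the Listeria library and 1 lower, against 21.4% of 8122 genes higher and 6.91% lower, with a median log2 ratio of 0.11 over all of them. Jak2 was the higher one, with 1273 UMIs (124 CPM) in the Listeria and 873 UMIs (89.6 CPM) in the naive library, a log2 ratio of 0.47 (0.35 to 0.60). Socs1 was the lower one, at 12.2 CPM in the Listeria and 16.0 CPM in the naive library (-0.39, -0.74 to -0.04). Irf1 was at 113 CPM in the Listeria and 134 CPM in the naive library (-0.24, -0.35 to -0.12), with an interval below 0 but inside the limit. The receptor chains were inside the limit: Ifngr1 at -0.06, Ifngr2 at -0.16, Ifnar1 at -0.10 and Ifnar2 at 0.21 (0.03 to 0.39). Jak2 was also higher in the free RNA of the Listeria library, at 112 CPM, than in that of the naive library, at 44.4 CPM. With free RNA subtracted at 5% of each cell's UMIs, the log2 ratio of Jak2 in the HSC gate was 0.44. With at least 4 HSC markers required, Socs1 was at -0.18, inside the limit, and with HSC, MPP, lymphoid-primed and ungated cells pooled Jak2 was at 0.31, just inside it.

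Jak2 did not go the same way elsewhere. It was at 122 CPM in the ungated cells of the Listeria and 96.1 CPM in those of the naive library (0.35, 0.23 to 0.47, and 0.27 with at least 2 HSC markers in the HSC gate), and at 89.0 and 71.3 CPM in the megakaryocyte gate (0.32, -0.01 to 0.65). The MPP gate had 84.2 CPM in the Listeria and 89.7 CPM in the naive library (-0.09, -0.26 to 0.08). In the T/NK gate Jak2 was at 83.9 CPM in the Listeria and 126 CPM in the naive library (-0.59, -1.07 to -0.13), from 51 and 171 UMIs. Of the 7 gates compared, Jak2 passed the limit upward in 1 and downward in 2, the second being the lymphoid-primed gate.

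Irf1 was lower in the Listeria library in 6 of the 7 gates, past the limit in 3, with intervals below 0 in 4. The B-lineage gate had 121 CPM (110.5 to 133) in the Listeria and 184 CPM (177 to 191) in the naive library, a log2 ratio of -0.60 (-0.75 to -0.46). Irf1 was the only member past the limit there, where 6.27% of 7509 genes were lower and 8.19% higher. The MPP gate had 106 CPM in the Listeria and 149 CPM in the naive library (-0.48, -0.63 to -0.34), and the lymphoid-primed gate 134 and 202 CPM (-0.58, -0.84 to -0.33). In the ungated cells Irf1 was at 106 CPM in the Listeria and 175 CPM in the naive library (-0.73, -0.84 to -0.62). The neutrophil gate went the other way, at 131 and 108 CPM, with an interval that held 0 (0.28, -0.22 to 0.77). Free RNA differed alike, with Irf1 at 106 CPM in the Listeria and 153 CPM in the naive library. Socs1 did not follow Irf1 in every gate. Its log2 ratio was -0.07 (-0.53 to 0.37) in the B-lineage gate and 0.22 (-0.28 to 0.73) in the MPP gate.

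Immediate early genes, which handling can switch on within minutes but which also answer other inputs, moved with Irf1 in some gates and not in others. The summed level of 15 of them was 6628 CPM in the B-lineage gate of the Listeria and 8290.0 CPM in that of the naive library. There 0 of 15 were higher and 7 lower, against 8.19% and 6.27% of all genes. In the HSC gate the sums were 15188 and 20377 CPM, again with 0 higher and 7 lower, against 21.4% and 6.91% of all genes. The members did not move as one: Jund was at 2640 CPM in the Listeria and 4742 CPM in the naive library there (-0.85), while Fos was at 915 and 773 CPM (0.24). In the lymphoid-primed gate, where Irf1 was lower in the Listeria library, the sum was higher there, at 17833 CPM against 15607 CPM in the naive library. Of the 15, 9 were higher and 3 lower, against 27.8% and 14.1% of all genes. In the MPP gate the sums were 15119 and 15699 CPM, with 5 higher and 4 lower, against 22.5% and 6.96% of all genes. Among the higher were Fos (0.90) and Egr1 (0.47), and among the lower Klf4 (-0.93), Atf3 (-0.89) and Jund (-0.79). In the ungated cells the sums were 8962 CPM in the Listeria and 15921.5 CPM in the naive library. There 0 of 15 were higher and 14 lower, against 22.6% and 15.5% of all genes. In the neutrophil gate they were 6909 and 10994 CPM, with 0 higher and 13 lower, against 34.5% and 19.4% of all genes. Irf1 was not lower in that gate. The part of handling in the difference of Irf1 was not tested, and with 1 library per group handling and challenge cannot be told apart.

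Of the remaining differences past the limit, the MPP gate had Ifnar1 at 37.4 CPM in the Listeria and 49.0 CPM in the naive library (-0.39, -0.63 to -0.14) and Ifngr2 at -0.36 with an interval that held 0, which with Irf1 made 3 of 8 members lower and 0 higher, where 6.96% of all genes were lower and 22.5% higher. The lymphoid-primed gate had 4 of 9 members lower and 0 higher, where 14.1% of genes were lower and 27.8% higher. They were Socs1, at 10.3 CPM in the Listeria and 23.6 CPM in the naive library (-1.19, -2.17 to -0.33), Irf1, Jak2 and Ifngr1 (-0.37). The T/NK gate had 4 of 9 lower and 0 higher, where 23.7% of genes were lower and 21.5% higher: Ifngr2 (-1.36, from 4 and 23 UMIs), Ifnar1 (-0.69, -1.29 to -0.12), Jak2 and Ifnar2 (-0.53). In the megakaryocyte gate Ifngr1 was lower and Socs1 higher, where 14.3% of genes were lower and 18.4% higher, and both intervals held 0. In the neutrophil gate Ifngr1, Ifngr2 and Jak1 were higher and none lower of 7, where 34.5% were higher and 19.4% lower, again with intervals that held 0. With TMM factors Ifngr1 was at 0.26 and Jak1 at 0.24 there, inside the limit. With lineage markers at 3 or more UMIs, Ifnar2 in the T/NK gate was at -0.17 and Ifngr1 in the megakaryocyte gate at -0.22, and without the Flt3 and Cd48 exclusion Jak2 in the lymphoid-primed gate was at -0.27, all inside the limit. In T/NK-gated cells with at least 5000 UMIs, Ifngr1 was at -1.05, past the limit, Ifnar1 at -1.66 and Ifngr2 at -2.18. With lineage markers at 3 or more UMIs, Socs1 in the megakaryocyte gate was at 2.90. Ifngr1 in the lymphoid-primed gate was at -0.28 in cells with at most 5% mitochondrial UMIs. The ungated cells had Jak2 higher and Ifngr2, Socs1 and Irf1 lower, where 22.6% of genes were higher and 15.5% lower. The cells of more than 1 gate, 57 in the Listeria and 107 in the naive library, had 2 of 9 higher and 1 lower, where 18.9% were higher and 26.4% lower.

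The HSC gate was split by 2 transcripts, chosen after their values were seen: Fos, an immediate early gene, and Rsad2, a type I interferon target. At least 3 Fos UMIs were seen in 507 Listeria cells (37.0% of the gate) and 499 naive cells (36.9%), with medians of 7043 and 7010 UMIs. Under that limit, Jak2 was at 158 CPM in 864 Listeria cells and 101 CPM in 855 naive cells, a log2 ratio of 0.66 (0.51 to 0.81). At or over it, Jak2 was at 68.4 CPM in the Listeria and 72.6 CPM in the naive library (-0.08, -0.33 to 0.16). The higher Jak2 of the Listeria library lay in the cells with little Fos, though the difference between the splits was not tested. Both libraries had less Jak2 in the cells with more Fos. With the limit at 1 UMI the ratio was 0.57 in cells without Fos and 0.12 in those with it, and with the limit at 10 UMIs it was 0.59 and 0.16. In the ungated cells the ratio was 0.46 (0.32 to 0.59) under 3 Fos UMIs and -0.31 (-0.59 to -0.02) at or over it. In the MPP gate it was 0.10 (-0.11 to 0.31) under 3 Fos UMIs and -0.18 (-0.47 to 0.12) at or over it, and with the limit at 1 UMI it was 0.24 (-0.02 to 0.51) in cells without Fos and -0.34 (-0.57 to -0.12) in those with it. In the megakaryocyte gate it was 0.54 (0.07 to 1.03) under 3 Fos UMIs and 0.03 (-0.46 to 0.51) at or over it, but 0.30 and 0.53 with the limit at 10 UMIs.

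In the HSC gate Socs1 was higher in cells with more Fos in both libraries, at 17.6 CPM in the Listeria and 25.2 CPM in the naive library at or over 3 Fos UMIs, and at 8.95 and 10.1 CPM under it. In the MPP gate this held in the Listeria library, at 15.5 CPM at or over 3 Fos UMIs and 6.73 CPM under it, whereas the naive library had 10.3 and 9.41 CPM. Irf1 in the HSC gate was at 103 CPM in the Listeria and 116 CPM in the naive library at or over 3 Fos UMIs, and at 120 and 145 CPM under it.

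**Figure D4:**
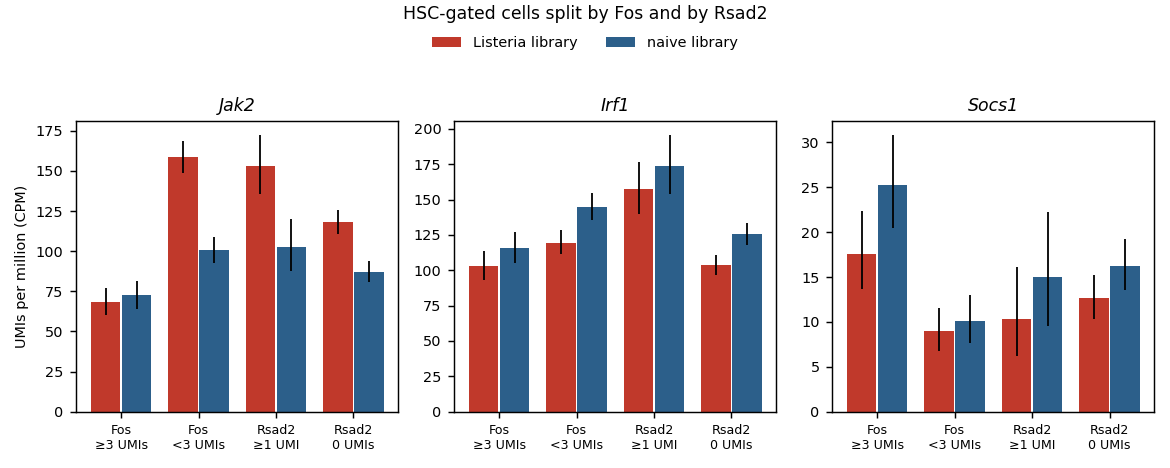
Levels of Jak2, Irf1 and Socs1 in HSC-gated cells split by Fos UMIs (at least 3, or under 3) and by Rsad2 UMIs (at least 1, or 0), as bars in CPM from 0 with exact Poisson 95% intervals, for the Listeria library (red, left) and the naive library (blue, right). Jak2 differs between libraries in cells with under 3 Fos UMIs (158 and 101 CPM), and not in cells with at least 3 (68.4 and 72.6 CPM), where the intervals overlap.

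An Rsad2 UMI was seen in 228 HSC-gated cells of the Listeria (16.6%) and 205 of the naive library (15.1%). These cells had more Irf1, at 158 CPM in the Listeria and 174 CPM in the naive library, than cells without it, at 104 and 126 CPM. Their Jak2 was at 153 CPM in the Listeria and 103 CPM in the naive library, against 118 and 87.0 CPM without it, so the difference in Jak2 was present on both sides of this split. Rsad2 itself was at 210.0 CPM in the HSC gate of the Listeria and 51.8 CPM in that of the naive library, and 10 cells held 44.6% of its 2147 UMIs in the Listeria library and 33.9% of its 505 UMIs in the naive library.

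Among the Stat genes, Stat3 was higher in the HSC gate, at 202 CPM in the Listeria and 150 CPM in the naive library (0.43, 0.33 to 0.53), and so was Stat5a, at 73.2 and 56.7 CPM (0.37, 0.21 to 0.53). Stat2 was at 21.0 CPM in the Listeria and 18.1 CPM in the naive library (0.22, -0.08 to 0.51) and Irf9 at 37.2 and 36.9 CPM (0.01, -0.20 to 0.22). In the B-lineage gate Irf9 was at 27.5 CPM in the Listeria and 39.9 CPM in the naive library (-0.54, -0.85 to -0.24), past the limit. Of 13 other brakes tested in the HSC gate, 4 were higher and 1 was lower, against 21.4% and 6.91% of all genes. Beside Socs4, the higher ones were Socs7 (0.57), Pias1 (0.56) and the phosphatase gene Ptpn11 (0.52). Socs3, the inhibitor of Stat3 signalling, was at 62.1 CPM in the Listeria and 115 CPM in the naive library (-0.89, -1.03 to -0.75), and Socs4 at 22.8 and 14.0 CPM (0.71, 0.40 to 1.02).

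Among the other receptor chains, Csf2rb, the shared chain of the interleukin 3 and GM-CSF receptors, was at 25.1 CPM in the Listeria and 10.7 CPM in the naive library over all kept cells (1.23, 1.07 to 1.38), and at 19.9 and 7.08 CPM in the HSC gate (1.49). Il7r, the interleukin 7 receptor of lymphoid cells, was at 16.7 CPM in the Listeria and 46.4 CPM in the naive library over all kept cells (-1.48), but at 95.6 and 106 CPM within the B-lineage gate (-0.15). The interferon regulatory factors Irf4 and Irf8 behaved like Il7r. Over all kept cells they were at -1.17 and -1.22, and within the B-lineage gate at 0.05 and -0.15. Over all kept cells 3 of the 6 tested factors, these and Irf7 (-0.62), were lower and 0 higher, against 8.62% and 15.1% of all genes.

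Targets of the pathway went both ways in the HSC gate. There, 7 of 18 type I targets tested were higher in the Listeria library and 1 was lower, against 21.4% and 6.91% of all genes, with a median of 0.10 beside 0.11 for all genes. Rsad2 led (2.02), followed by Ifit1 (1.24) and Ifih1, a sensor of double-stranded RNA, at 94.1 CPM in the Listeria and 58.0 CPM in the naive library (0.70). Few cells held much of Ifit1: 10 cells had 41.5% of its 193 UMIs in the Listeria and 33.3% of its 78 UMIs in the naive library. The one that was lower was Irf7, a regulator of type I interferon genes, at 8.61 CPM in the Listeria and 13.1 CPM in the naive library (-0.61, -1.02 to -0.21). Ifitm3, which blocks viral entry, was at 541 CPM in the Listeria and 666 CPM in the naive library (-0.30) and the tether Bst2 at 71.0 and 86.7 CPM (-0.29), both inside the limit. Of 14 interferon gamma targets tested there, 3 were higher and 1 lower with a median of 0.04, shares near the 21.4% and 6.91% of all genes. The guanylate-binding protein gene Gbp3 was at 40.1 CPM in the Listeria and 23.7 CPM in the naive library (0.76), and the GTPase gene Iigp1 at 21.4 and 12.9 CPM (0.73). Gbp2 was at 31.0 and 31.9 CPM (-0.04), and the adhesion molecule gene Icam1 was lower, at 136 CPM in the Listeria and 195 CPM in the naive library (-0.52).

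In the T/NK gate, 14 of 22 type I targets were lower in the Listeria library and 3 higher, against 23.7% and 21.5% of all genes, with a median of -0.72 beside -0.01 for all genes. Ifit1 had 0 UMIs in the Listeria and 67 UMIs in the naive library, and the interval of the log2 ratio ended at -2.98. Isg15, a ubiquitin-like target, was at 13.2 CPM in the Listeria and 58.9 CPM in the naive library (-2.16, -3.42 to -1.11). Few cells carried these UMIs: Ifit1 was seen in 16 of 206 naive cells, and 10 cells held 88.1% of it. The B-lineage gate had 3 of 10 type I targets lower and 0 higher, against 6.27% and 8.19% of all genes, with a median of -0.22. They were Ifit2 (-0.63), Ifi27l2a (-0.57) and Ifitm3 (-0.49). In the lymphoid-primed gate 9 of 19 were lower and 2 higher, against 14.1% and 27.8% of all genes, and in the MPP gate 3 of 18 were lower and 0 higher, against 6.96% and 22.5%.

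Ligand transcripts were found in few cells. Of Ifng, the gene of interferon gamma, the T/NK gate held 145 of 154 UMIs (94.2%) in the Listeria and 196 of 224 (87.5%) in the naive library. Its level there was 238 CPM (201 to 281) in the Listeria and 144 CPM (125 to 166) in the naive library. An Ifng UMI was seen in 35 of 102 Listeria cells (34.3%) and 59 of 206 naive cells (28.6%), and the 10 highest cells held 68.3% of the Listeria and 48.0% of the naive UMIs. As sums over the gate, and not cell by cell, Ifng, Ifngr1, Socs1 and Irf1 were each highest in the T/NK gate. Ifnb1, a type I interferon, had 1 UMI in the Listeria and 21 UMIs in the naive library, 19 of them in 1 ungated cell.

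The genes whose profile over the 17 gate-by-library profiles was most like each member's, among 2877 genes searched, were Chmp1b (r = 0.90) and Dock2 (0.88) for Ifngr1, and Il16 (0.92) and Cd24a (0.89) for Ifngr2. They were Acbd5 (0.91) and Sub1 (0.83) for Ifnar1, and Kctd12 (0.89) and Ctsh (0.88) for Ifnar2. For the kinases they were Rbl2 (0.94) and Ddx3x (0.92) for Jak1, Fam117b (0.86) and Spty2d1 (0.85) for Jak2, and Tapbp (0.76) and Cyth4 (0.75) for Tyk2. For Socs1 they were Trbc1 (0.92) and Tcf7 (0.91), both T cell genes, and for Irf1 Sept1 (0.93) and Bcl2l11 (0.87). The profiles share libraries and depth, and these values describe likeness only.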

How the data were processed

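The authors deposited whole-number UMI counts for each gene and barcode of both libraries, made with Cell Ranger 3.0.2 on mm10 per the submitters' processing notes. The 9 genes and all lists were chosen with earlier results of these data known. Cells passing more than 1 lineage gate (57 Listeria, 107 naive) were set aside as possible doublets, and no doublet caller was run. A lineage gate needed at least 3 markers at 2 UMIs or more (10 UMIs or more for neutrophils). Counts were summed per gate and library and scaled to 1000000. Poisson, Clopper-Pearson and binomial-split intervals are at 95%. Ratios between libraries were made in 7 marker gates with at least 50 cells in each library, in multi-gate and in ungated cells. Genes with at least 10 CPM in either group and 20 UMIs over both were compared. Further genes of the pathway lists other than the target lists were named if they had at least 20 CPM and passed 1.5-fold in all kept cells or the HSC gate. Of each target list, the 2 highest and 2 lowest ratios in the HSC gate among genes with at least 20 CPM were named. Other genes named from the lists were chosen after their values were seen. Of 30 type I targets, 29 were in the table. Python 3.11.15, numpy 2.4.6, scipy 1.17.1 and pandas 2.3.3 were used. TMM factors from edgeR 4.0.16 and size factors from DESeq2 1.42.0 (R 4.3.3) served as alternatives. Ratio intervals were tried on simulated Poisson counts, which have only the counting error that the intervals assume. Spread between cells or libraries was not simulated, so this does not show how the intervals hold for it. Positions came from GENCODE vM21. A gene of the pathway is not reported here.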

Additional observations from a re-analysis of the deposited data

Results flagged for a closer look

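The log2 ratio of Jak2 of the Listeria over the naive library was 0.47 in the HSC gate and -0.59 in the T/NK gate, so that the gates went opposite ways, with intervals that excluded 0 in each. The difference between the gates was not tested, since each rests on 1 library per group.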

How the results depend on the processing

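No paired analysis was possible because there was 1 library per group, and for the same reason no library could be left out. No ratio past the limit changed direction under any alternative run. Of the members past the limit over all kept cells, 1 was lower with a 50 CPM minimum and 0 were higher with the naive mix of gates. In the HSC gate, 2 were lower with TMM factors, with at least 2 HSC markers or without the exclusion of Flt3 and Cd48, and 0 were lower with the mean of per-cell CPM, the 50 CPM minimum or at least 4 HSC markers. With HSC, MPP, lymphoid-primed and ungated cells pooled, chosen after seeing the data, 0 were higher and 3 lower, and Jak2 was at 0.31. Over the 16 settings run the log2 ratio of Jak2 in the HSC gate was 0.31 to 0.53, that of Socs1 -0.65 to -0.18 and that of Irf1 -0.53 to -0.20. In the MPP gate 1 was higher with at least 5000 UMIs, without the 5% of cells with most UMIs or without the exclusion, and 1 was lower with the 50 CPM minimum. In the B-lineage gate 1 was higher with the mean of per-cell CPM. TMM factors moved the median of all genes to -0.01 in the lymphoid-primed gate, against 0.09, and to 0.02 in the neutrophil gate, against 0.13. The log2 ratio of Ifngr1 in the T/NK over the HSC gate of the naive library was 2.01 with markers at 3 or more UMIs. With at least 5000 UMIs per cell, the log2 ratio of Ifngr1 between the libraries in the T/NK gate was -1.05, against -0.15, that of Ifnar1 there -1.66, against -0.69, and that of Ifnar1 in the neutrophil gate -1.44, against 0.00. The share of cells with both chains depended on depth. Thinned to 5000 UMIs, both Ifngr chains were seen in 2.41% of HSC-gated Listeria and 2.94% of naive cells and in 5.0% and 5.10% of B-lineage cells, and both Ifnar chains in 4.82% and 3.80% of HSC-gated and 3.82% and 5.01% of B-lineage cells. Unthinned, the shares were 4.16%, 4.36%, 14.5% and 13.8% for Ifngr and 8.17%, 6.94%, 12.4% and 15.0% for Ifnar in the same order. With at least 4 HSC markers, 0.120% of HSC-gated Listeria cells had both Ifngr chains. The cause of these changes was not tested.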
